A study of Mus musculus with 18 samples.

Results

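The NRF2 antioxidant and xenobiotic metabolism genes are 44 listed genes of cell defence, 44 of the 35551 genes measured in AML12, a mouse hepatocyte line that is not transformed. The list of symbols was drawn up with earlier results of these data known, its rule uses no measured value, and all 44 were found in each of the 3 deposited tables. By role they are 6 regulators, 7 genes of the glutathione and thioredoxin cycle, 2 of quinone and heme metabolism and 5 peroxidases and dismutases. The rest are 4 pentose phosphate genes, 8 glutathione S-transferases, 3 of epoxide and glucuronide metabolism, 5 export pumps and 4 of oxidation. The cells were synchronized in their circadian rhythm and given pemafibrate (Pema), an agonist of the lipid-sensing nuclear receptor PPARα, or the vehicle DMSO. Pemafibrate and DMSO were each given over T0 to T24 (24 h, the reference exposure), over T14 to T20 (6 h, day-like) or over T24 to T30 (6 h, night-like). Each of the 6 groups held 3 libraries of poly(A) RNA, 18 in all, with no other treatment or genetic change named in the labels, and the dose was not given in the sources used here. Replicates carried the numbers 1, 2 and 3, and the labels do not call them separate cultures. The p-values therefore reflect the spread among these libraries alone, and that spread may be technical.

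NRF2, encoded by Nfe2l2, is a transcription factor that KEAP1 holds in the cytosol and marks for degradation. Oxidants and electrophiles disable KEAP1, and NRF2 then enters the nucleus, pairs with small MAF proteins and binds antioxidant response elements of genes for glutathione synthesis, thioredoxin, NADPH supply and conjugation. The aryl hydrocarbon receptor (AHR) pairs with ARNT on xenobiotic response elements, with Cyp1a1 as its best known target, while the nuclear receptors PXR (Nr1i2) and CAR (Nr1i3) switch on drug metabolism in the liver. Hepatocytes use these systems to oxidize foreign compounds, join them to glutathione or glucuronic acid, and pump the products out.

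Values were the authors' normalized signal, which summed to 31461977 to 33884634 in each library, and the read depth behind them is unknown. Summed signal of 13 hepatocyte markers ran from 159124 to 202860 in pemafibrate libraries and from 157077 to 203570 in DMSO libraries. Asgr1, a hepatocyte receptor, stayed under 10 in all libraries, so 1 defining hepatocyte marker was nearly absent. Adgre1 and Clec4f, which mark macrophages, were listed at 0 in all libraries. The whole list of 6 macrophage and leukocyte markers still summed to 3891 to 6378 in pemafibrate libraries and 3813 to 6238 in DMSO libraries. The 6 listed genes that PPARα is known to control were all higher with pemafibrate, and all 6 passed in limma over the 9 pairs, led by Acot1, a fatty acyl thioesterase, with a log2 fold change of 0.73 ± 0.036 (SE, adjusted p = 2.7e-07). Of these 6, limma called 5 within the T0 to T24 window alone, but only 2 in each 6 h window. All 6 had positive log2 fold changes in every window, so tests of a single window left known responses uncalled.

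Promoters of a few members are shown first, and no link between their letters and the results was tested. Cyp1a1 and Cyp1b1 were chosen because they had the lowest log2 fold changes with pemafibrate over all pairs. Ugt1a9 was the member that passed over the 6 h exposures, Gsta1 differed most between replicate numbers, and Gclm is a known NRF2 target. Each window holds 250 bases before and 50 bases after the annotated start, from RefSeq on GRCm38.p6, printed 5′ to 3′ on the gene's strand. They lie at chr9:57697363-57697662 (plus strand, Cyp1a1), chr17:79715012-79715311 (minus strand, Cyp1b1), chr1:88070529-88070828 (plus strand, Ugt1a9), chr9:78230419-78230718 (plus strand, Gsta1) and chr3:122245307-122245606 (plus strand, Gclm). Capitals mark the core of the xenobiotic response element, GCGTG, which reads on the other strand as CACGC, and the core of the antioxidant response element, TGACNNNGC, which reads there as GCNNNGTCA.
Cyp1a1: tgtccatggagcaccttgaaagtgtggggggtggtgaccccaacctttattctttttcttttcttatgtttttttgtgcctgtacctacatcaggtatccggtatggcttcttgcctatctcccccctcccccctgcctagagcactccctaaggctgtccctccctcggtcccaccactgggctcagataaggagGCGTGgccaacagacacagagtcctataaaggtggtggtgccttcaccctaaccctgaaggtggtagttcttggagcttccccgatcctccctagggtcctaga
Cyp1b1: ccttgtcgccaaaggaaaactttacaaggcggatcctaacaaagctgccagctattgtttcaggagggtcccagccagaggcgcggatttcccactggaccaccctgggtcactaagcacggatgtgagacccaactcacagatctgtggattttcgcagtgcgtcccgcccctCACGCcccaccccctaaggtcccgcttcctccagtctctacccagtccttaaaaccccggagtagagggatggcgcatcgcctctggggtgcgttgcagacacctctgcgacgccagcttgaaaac
Ugt1a9: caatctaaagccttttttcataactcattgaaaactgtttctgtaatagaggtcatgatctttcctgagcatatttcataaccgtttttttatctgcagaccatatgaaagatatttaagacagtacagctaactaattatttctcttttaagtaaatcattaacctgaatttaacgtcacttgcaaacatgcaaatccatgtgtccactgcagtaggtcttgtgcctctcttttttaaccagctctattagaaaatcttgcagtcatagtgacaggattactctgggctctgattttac
Gsta1: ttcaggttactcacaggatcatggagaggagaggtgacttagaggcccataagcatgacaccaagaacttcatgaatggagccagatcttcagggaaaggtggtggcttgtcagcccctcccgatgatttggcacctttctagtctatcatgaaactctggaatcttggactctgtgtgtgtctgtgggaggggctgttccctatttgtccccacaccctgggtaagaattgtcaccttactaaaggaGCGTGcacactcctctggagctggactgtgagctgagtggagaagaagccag
Gclm: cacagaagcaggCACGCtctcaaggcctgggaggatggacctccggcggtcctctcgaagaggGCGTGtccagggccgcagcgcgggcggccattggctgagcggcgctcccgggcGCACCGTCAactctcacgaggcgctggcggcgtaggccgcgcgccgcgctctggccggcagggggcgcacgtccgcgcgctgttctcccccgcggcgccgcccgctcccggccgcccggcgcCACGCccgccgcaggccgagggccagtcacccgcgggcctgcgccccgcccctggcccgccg
The Cyp1a1 window held 1 xenobiotic core, beginning at base −54 from the start, and the Cyp1b1 window held 1, beginning at −76. The Gsta1 window held 1, beginning at −2, and the Ugt1a9 window held neither core. The Gclm window held 1 antioxidant core at −134 and 3 xenobiotic cores at −238, −187 and −12. Over the table, 37 members had an entry, with 46 windows among them, and 14 of the 46 windows (30.4%) held the antioxidant core, against 4071 of all 32851 windows (12.4%). The xenobiotic core stood in 30 of the 46 windows (65.2%), against 10639 of all windows (32.4%). These are matches of letters, not measured binding sites, and base composition was not matched between the 2 sets of windows.

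No member passed the test within any single window, a test that called only 2 of the 6 PPARα genes in each 6 h window. In these bulk samples fewer cells of a type and less RNA per cell cannot be told apart. Each window was tested by limma on log2(signal + 1), paired by replicate number, for genes with a mean of at least 10, and a gene passed at an adjusted p under 0.05 over all genes tested. For T0 to T24, 0 of 41 members tested passed, where 0.0525% of all 13325 genes did. Unadjusted p was under 0.05 for 3 members and for 689 of all genes tested. For T14 to T20, 0 of 42 passed, where 0.0379% of 13210 genes did (0.0303% higher and 0.00757% lower). There 6 members and 1075 of all genes had an unadjusted p under 0.05. For T24 to T30, 0 of 43 passed, where 0.0378% of 13231 genes did. In that window 5 members and 994 of all genes had an unadjusted p under 0.05. One fit over all 9 pairs also called 0 of 43 members, where 0.189% of 13258 genes passed (0.181% higher and 0.00754% lower). Over these pairs 5 members had an unadjusted p under 0.05. For this and later fits such counts stand without those of all genes, and nothing is read from them. Gpx2, a glutathione peroxidase, was below the minimum in every fit, with a highest value of 4.28. Nqo1 and Gsta2 were below it over T0 to T24 and Nr1i3 over T14 to T20.

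The members' intervals were narrow for most roles. In the fit over 9 pairs, 34 of 43 members had a 95% interval inside ±0.3 on the log2 scale, and the median log2 fold change of members was 0.007, against −0.002 for all genes tested. All 7 genes of the glutathione and thioredoxin cycle lay inside bounds of −0.09 and 0.11. The 4 pentose phosphate genes lay inside −0.14 and 0.06, and the 4 peroxidases and dismutases tested inside −0.08 and 0.07. The intervals that reached past ±0.3 belonged to Nqo1, Nr1i3, Ahrr, Nr1i2, Cyp1b1, Cyp1a1, Abcb4, Gsta2 and Ugt1a9. Apart from Ugt1a9, none of these 9 genes had a signal above 182 in any library, and for all 9 a change past ±0.3 was not excluded.

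**Figure D1:**
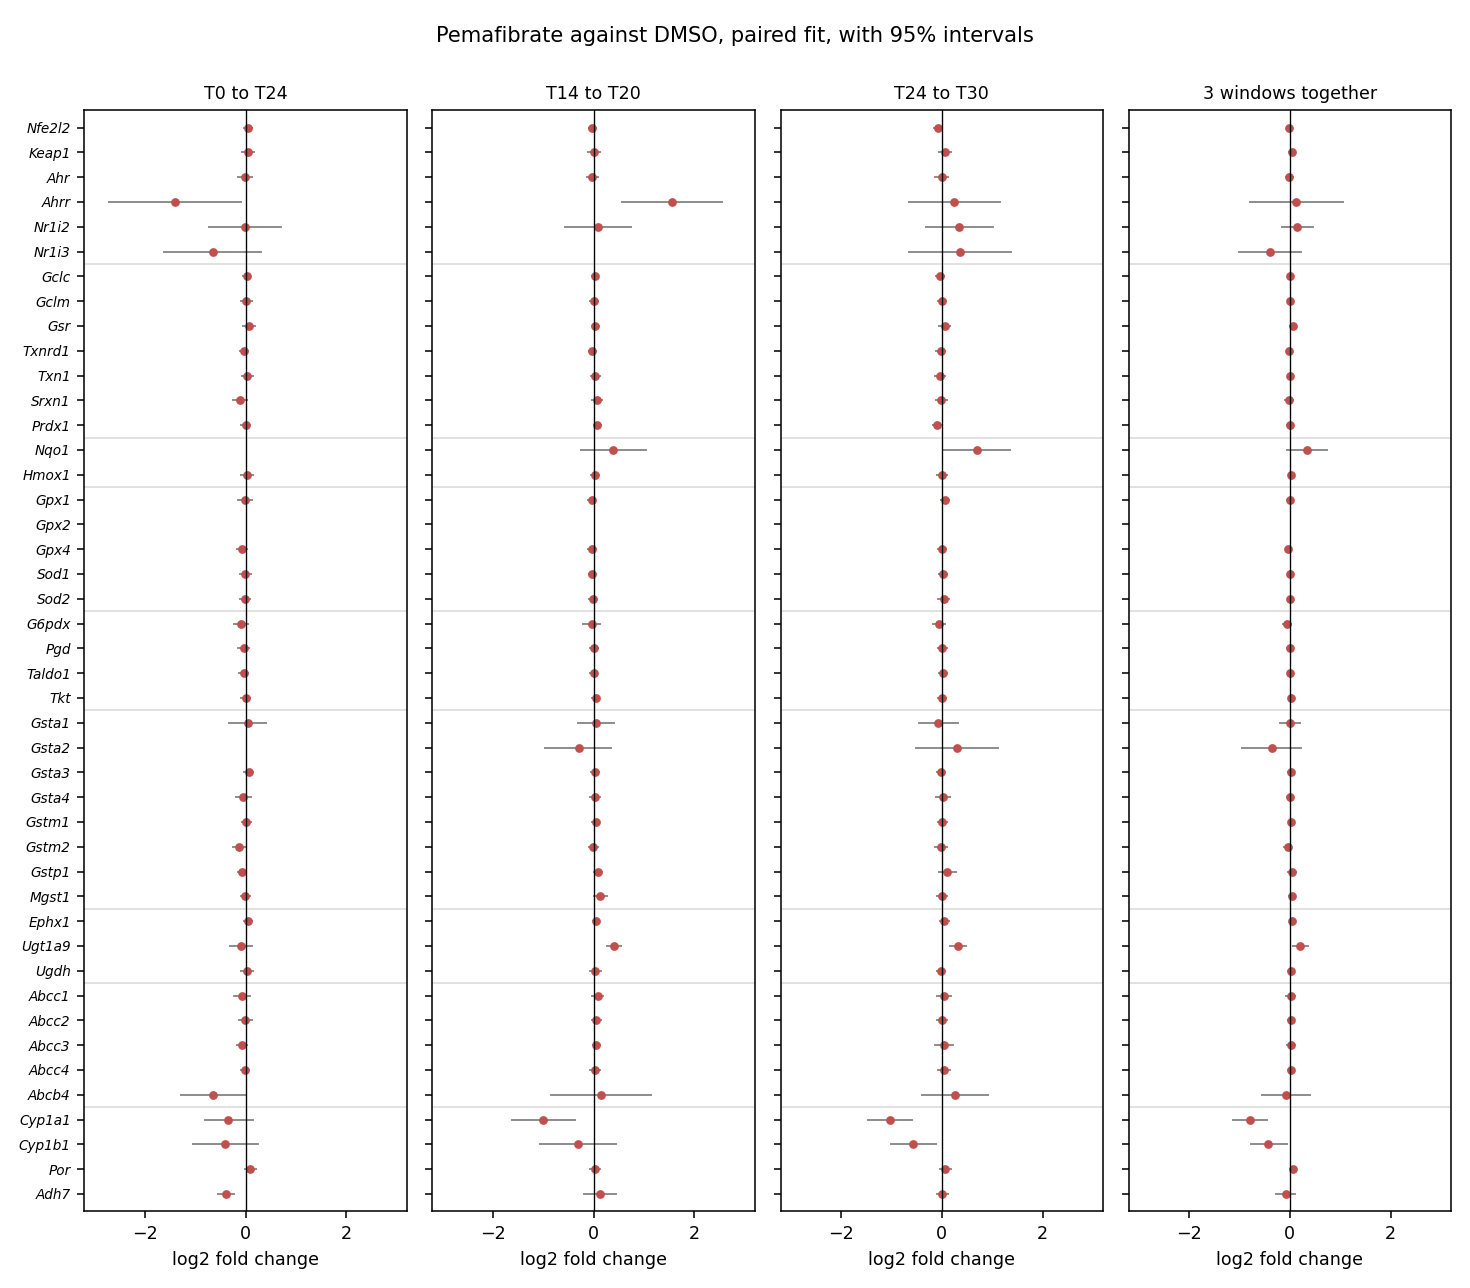
Log2 fold change of each tested member, pemafibrate against DMSO, in the paired fit of each window and of the 3 windows together; points are estimates, bars 95% intervals, and grey lines part the roles. Most members sit at 0 with short bars, Cyp1a1 lies left of 0 in every panel, and Ugt1a9 lies right of 0 in the T14 to T20 and T24 to T30 panels.

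Among the regulators, Nfe2l2 and Keap1 kept close values in both treatments. Nfe2l2 signal was 6854, 7784 and 7451 in pemafibrate libraries of T0 to T24 (replicates 1, 2 and 3), against 6406, 7649 and 7361 in DMSO libraries. It was 6983, 7053 and 6386 with pemafibrate over T14 to T20, against 7005, 7182 and 6597 with DMSO. In the T24 to T30 window it was 7031, 6946 and 6297 with pemafibrate, against 7635, 7075 and 6630 with DMSO. Pemafibrate libraries were higher in 3 of 3 pairs of the 24 h window and lower in 6 of 6 pairs of the 6 h windows, by at most 0.12 on the log2 scale, and the groups overlapped in every window. Keap1 signal lay between 1553 and 2022 in all libraries. Ahr lay between 1189 and 1695, and its pemafibrate value was higher in 4 of 9 pairs.

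Ahrr, the repressor of AHR, had fold changes of opposite sign in 2 windows, at a low signal, and neither passed. In the T0 to T24 window it had 25.0, 6.19 and 4.26 with pemafibrate, against 56.8, 6.19 and 42.0 with DMSO. In the T14 to T20 window it had 8.85, 27.3 and 24.0 with pemafibrate, against 5.14, 5.11 and 6.31 with DMSO. The groups overlapped in the first of these windows and did not in the second. The log2 fold changes were −1.40 ± 0.56 (SE, limma adjusted p = 0.946) and 1.56 ± 0.42 (adjusted p = 0.508), and the difference between them was −2.95 ± 0.73 (adjusted p = 0.985). Over T24 to T30 the log2 fold change was 0.24 ± 0.38. Ahrr falls outside the rule for genes given by library and was named after its values were seen. Nr1i2 and Nr1i3 had signals of 10.2 to 34.8 and 0.997 to 19.4 over all libraries.

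Cyp1a1, the monooxygenase that marks AHR activity, was lower with pemafibrate in 9 of 9 pairs, but did not pass. Over T0 to T24 its signal was 38.5, 28.8 and 38.7 with pemafibrate, against 53.4, 37.9 and 43.7 with DMSO. Over T14 to T20 it was 45.7, 47.9 and 99.2 with pemafibrate, against 56.7, 173 and 182 with DMSO. For T24 to T30 it was 21.9, 57.7 and 108 with pemafibrate, against 58.4, 120 and 173 with DMSO. Within a number the pemafibrate library was always the lower one. The groups still overlapped in every window, with replicate 1 of the 6 h DMSO libraries lying among the pemafibrate values. The log2 fold change over 9 pairs was −0.79 ± 0.16 (SE), a level 42.1% lower, with adjusted p = 0.092 in limma. Adjusted p ran from 0.088 to 1.000 over 16 other settings, the highest without the replicate block. By window it was −0.34 ± 0.20 (adjusted p = 0.959), −1.0 ± 0.27 (adjusted p = 0.508) and −1.03 ± 0.18 (adjusted p = 0.459) in the 3 windows in order of time. The effect at T0 to T24 minus that at T24 to T30 was 0.69 ± 0.35 (adjusted p = 0.643).

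Cyp1b1, a related monooxygenase under AHR control, was lower in 7 of 9 pairs and did not pass either. For T0 to T24 its signal was 11.8, 46.4 and 46.1 with pemafibrate, against 24.9, 57.9 and 42.0 with DMSO. For T14 to T20 it was 34.2, 42.1 and 48.8 with pemafibrate, against 20.5, 82.6 and 79.6 with DMSO. In the T24 to T30 window it was 29.1, 54.5 and 66.0 with pemafibrate, against 34.3, 92.9 and 109 with DMSO. The groups overlapped in all windows, and replicate 1 of T14 to T20 went the other way from replicates 2 and 3. The log2 fold change over 9 pairs was −0.43 ± 0.17 (SE, limma adjusted p = 0.70). Tiparp, another known AHR target that is not a member, averaged 737 ± 125 (SD, n = 3) with pemafibrate and 741 ± 163 with DMSO over T0 to T24, 744 ± 143 with pemafibrate and 900 ± 241 with DMSO over T14 to T20, and 751 ± 88.2 with pemafibrate and 929 ± 192 with DMSO over T24 to T30. Its log2 fold change over 9 pairs was −0.18 ± 0.062 (limma adjusted p = 0.629), lower in 6 of 9 pairs. It was 0.001 ± 0.062 at 24 h, higher in 2 of 3 pairs, and −0.27 ± 0.069 over the 6 h exposures (adjusted p = 0.470), lower in 5 of 6. Cyp1a2, an AHR target of the same list, was below the minimum, and was higher with pemafibrate in 6 of 9 pairs.

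Ugt1a9, which joins glucuronic acid to drugs and fatty acids and is the marker gene of the group, was higher with pemafibrate in 6 of 6 pairs of the 6 h exposures. In the T0 to T24 window its signal was 505, 398 and 461 with pemafibrate, against 574, 366 and 534 with DMSO. In the T14 to T20 window it was 799, 883 and 760 with pemafibrate, against 599, 638 and 613 with DMSO. Over T24 to T30 it was 774, 894 and 699 with pemafibrate, against 586, 694 and 608 with DMSO. The groups overlapped at 24 h and did not overlap in either 6 h window. Overlap is given for members only, so no share of all genes stands beside any statement of it. Apart from Ugt1a9, the treatments were separate only for Ahrr in T14 to T20, and for Gstm2 and Adh7 in T0 to T24. In every other window of these genes, and in all windows of the other members, the treatments overlapped. Groups this small can also separate by chance, so nothing is read from these few cases. Within windows the log2 fold changes were −0.09 ± 0.089 (SE, adjusted p = 0.978) over T0 to T24, 0.40 ± 0.060 (adjusted p = 0.187) over T14 to T20 and 0.32 ± 0.066 (adjusted p = 0.564) over T24 to T30 in limma.

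In the fit over all windows Ugt1a9 had a log2 fold change of 0.21 and did not pass (limma adjusted p = 0.629). Taken over both 6 h windows, Ugt1a9 rose by 0.36 ± 0.044 on the log2 scale (SE), a level 28.3% higher, with adjusted p = 0.010 in limma. That fit was 1 of the planned settings of the fit over all windows, and was made a result after the values had been seen. It called 1 of 42 members, Ugt1a9, where 0.106% of 13226 genes passed, and 4 members had an unadjusted p under 0.05. The call was lost without replicate 1 (adjusted p = 0.211), without replicate 2 (adjusted p = 0.367), without the variance trend (adjusted p = 0.073) and without the replicate block (adjusted p = 0.749). Adjusted p over 12 other settings ran from 0.0083 to 0.749. The effect at 24 h minus that at 6 h did not pass: it was −0.49 ± 0.10 against T14 to T20 (adjusted p = 0.899) and −0.41 ± 0.10 against T24 to T30 (adjusted p = 0.594).

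Ugt1a genes have first exons of their own and share the rest, so the division of reads between them is uncertain. The signal summed over 8 Ugt1a genes was therefore set beside Ugt1a9, after its values had been seen. Ugt1a9 is itself among the 8 and made up 7.24% to 11.6% of the sum, so the sum is not independent of it. Over T0 to T24 the sum was 5188, 4454 and 5802 with pemafibrate, against 5260, 5051 and 5846 with DMSO. Over T14 to T20 it was 6866, 8061 and 8907 with pemafibrate, against 5606, 7514 and 8351 with DMSO. For T24 to T30 it was 7029, 8059 and 7886 with pemafibrate, against 5557, 7250 and 7628 with DMSO. The sum was higher with pemafibrate in each 6 h pair, by 0.05 to 0.34 on the log2 scale. In the 24 h pairs its log2 difference was −0.02, −0.18 and −0.01, and no test was made on the sum. Ugt1a6b, a phenol glucuronosyltransferase of that locus, had a log2 fold change of 0.18 ± 0.043 over the 6 h exposures (SE, limma adjusted p = 0.443).

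**Figure D2:**
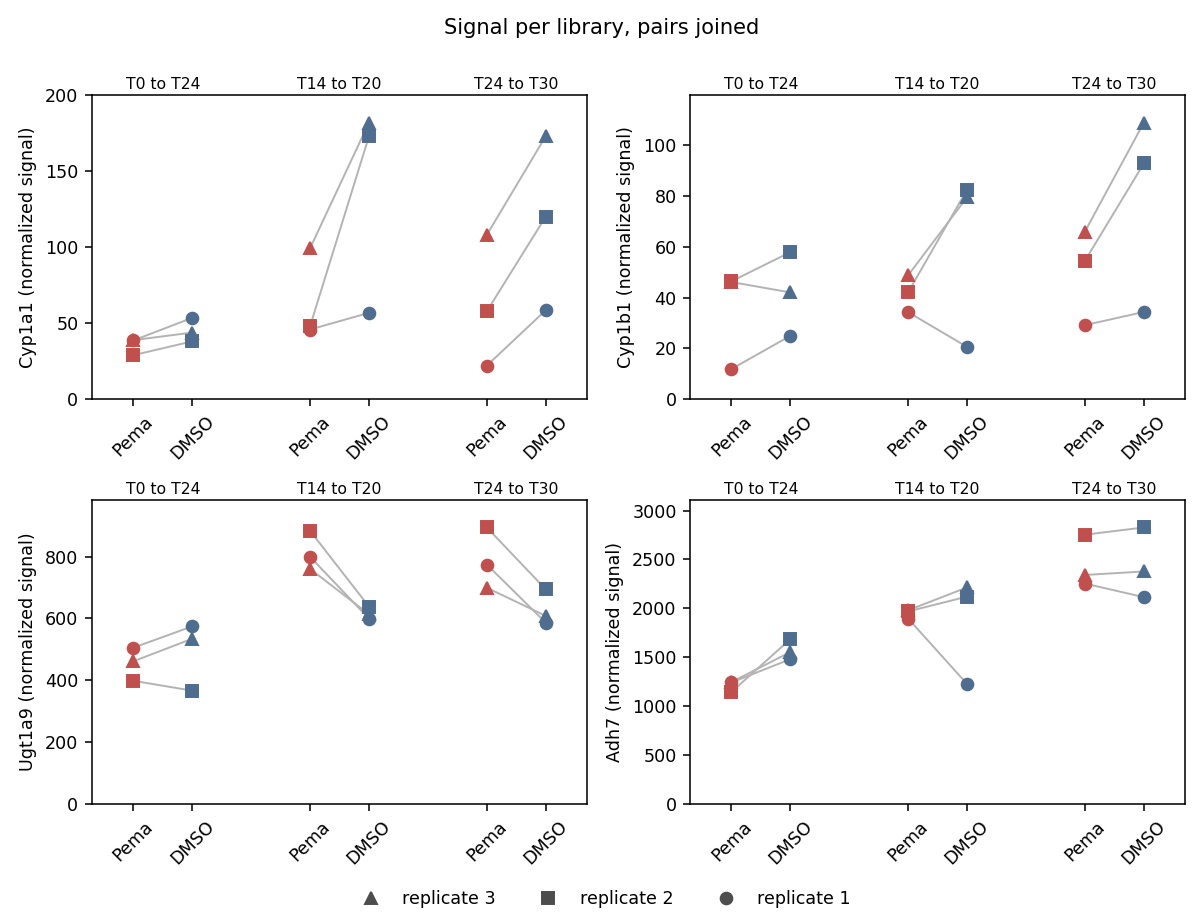
Normalized signal of Cyp1a1, Cyp1b1, Ugt1a9 and Adh7 in each library, by window and treatment; grey lines join libraries of the same replicate number. Every Cyp1a1 line is lower at its pemafibrate end, and every 6 h Ugt1a9 line is higher there.

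Ephx1, the microsomal epoxide hydrolase, had the next smallest p in the fit over 9 pairs. Its signal over T0 to T24 was 8693, 8665 and 8347 with pemafibrate, against 8432, 8453 and 8040 with DMSO. For T14 to T20 it was 8247, 9321 and 8196 with pemafibrate, against 7992, 8964 and 7973 with DMSO, and in T24 to T30 it was 8558, 9127 and 8332 with pemafibrate, against 7854, 8915 and 8385 with DMSO. Pemafibrate libraries were higher in 8 of 9 pairs, by small steps, and the groups overlapped in every window. Its log2 fold change was 0.05 ± 0.016 (SE, limma adjusted p = 0.629).

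Por, the reductase that feeds electrons to cytochromes P450, and Gsr, which reduces oxidized glutathione, complete the 6 members of smallest p. Por signal over T0 to T24 was 6183, 5785 and 5282 with pemafibrate, against 5703, 5838 and 4690 with DMSO. In the T14 to T20 window it was 5559, 4782 and 5037 with pemafibrate, against 5725, 4856 and 4578 with DMSO, and in T24 to T30 it was 5164, 4952 and 4804 with pemafibrate, against 4931, 5081 and 4243 with DMSO. The pemafibrate value was the higher in 5 of 9 pairs, and in all 3 pairs of replicate 3. Gsr signal over T0 to T24 was 12163, 11133 and 13084 with pemafibrate, against 10873, 11612 and 12151 with DMSO. Over T14 to T20 it was 12933, 13211 and 14357 with pemafibrate, against 12415, 13315 and 13922 with DMSO, and in T24 to T30 it was 15113, 13735 and 13846 with pemafibrate, against 13420, 14099 and 13461 with DMSO. Replicates 1 and 3 were higher with pemafibrate and replicate 2 lower, in every window. The log2 fold changes were 0.06 ± 0.028 for Por and 0.05 ± 0.025 for Gsr (SE, limma adjusted p = 0.767 and 0.777).

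Adh7, an alcohol dehydrogenase that also oxidizes retinol, was named after its values were seen. For T0 to T24 its signal was 1241, 1144 and 1245 with pemafibrate, against 1480, 1685 and 1553 with DMSO, and the groups did not overlap. Its log2 fold change there was −0.38 ± 0.068 (SE, limma adjusted p = 0.400), and adjusted p over 13 other settings ran from 0.281 to 1.000. In the 6 h windows its signal was 1894, 1968 and 1980 with pemafibrate, against 1225, 2120 and 2214 with DMSO over T14 to T20, and 2253, 2753 and 2341 with pemafibrate, against 2114, 2827 and 2377 with DMSO over T24 to T30. Pemafibrate libraries were higher in 2 of these 6 pairs, both of replicate 1. The effect at T0 to T24 minus that at T14 to T20 was −0.50 ± 0.17 (adjusted p = 0.985).

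Nqo1, the quinone reductase often used as a readout of NRF2, was near the minimum, with signals of 3.97 to 29.0. In the T0 to T24 window, where it was not tested, it had 5.93, 3.97 and 11.2 with pemafibrate, against 7.94, 5.97 and 7.12 with DMSO. For T14 to T20 it had 14.9, 29.0 and 28.3 with pemafibrate, against 8.98, 22.7 and 25.2 with DMSO, and over T24 to T30 it had 15.9, 26.8 and 26.0 with pemafibrate, against 10.1, 14.9 and 16.1 with DMSO. It was higher with pemafibrate in 6 of 6 pairs of the 6 h windows, where the groups overlapped, and its log2 fold change was 0.54 ± 0.18 (SE, limma adjusted p = 0.80). Hmox1, which breaks down heme and is also under NRF2 control, differed by at most 0.09 on the log2 scale in any pair. Its log2 fold change over 9 pairs was 0.02.

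The other members were summarized by role. Gclc and Gclm, the catalytic and modifier subunits that make the first step of glutathione synthesis, lay within −0.08 and 0.13 on the log2 scale in all 9 pairs. Txnrd1, thioredoxin reductase, was lower with pemafibrate in 7 of 9 pairs, by at most 0.10. Of the 4 pentose phosphate genes, G6pdx was lower in 7 of 9 pairs and Tkt higher in 7 of 9. The smallest adjusted p of the 4 in the limma fit over all pairs was 0.827, for G6pdx. Among the transferases, which join glutathione to electrophiles, Gstp1 and Mgst1 over T14 to T20 had log2 fold changes of 0.08 and 0.13 (limma adjusted p = 0.587 and 0.601). Gstm2 over T0 to T24 had signals of 1462 to 1585 with pemafibrate, against 1642 to 1680 with DMSO, without overlap, and did not pass. The export pumps Abcc1, Abcc2, Abcc3 and Abcc4 lay between −0.23 and 0.26 in single pairs. Abcb4, the phospholipid floppase of the bile canaliculus, was lower in 3 of 3 pairs at 24 h, with a log2 fold change of −0.65 ± 0.27 (adjusted p = 0.946) and signals of at most 38.4 in all libraries.

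The wider pathways gave no call either, in any of the windows or over all pairs. None of the 49 tested of 52 other NRF2 pathway genes passed over the 9 pairs in limma, and 3 had an unadjusted p under 0.05. Their median log2 fold change was 0.002, and the smallest p belonged to Maff, a small MAF protein, with a log2 fold change of −0.06 ± 0.020, and to Txnip, an inhibitor of thioredoxin, with 0.06 ± 0.024 (SE, adjusted p = 0.629 and 0.733). None of the 37 tested of 56 other AHR, PXR and CAR pathway genes passed, and 5 had an unadjusted p under 0.05. Their median was 0.018, and after Tiparp the smallest p belonged to Ugt2b5, a glucuronosyltransferase, with 0.12 ± 0.046 (adjusted p = 0.704). No member passed in any test of a difference between windows, where 0% of 13258 genes passed. Unadjusted p was under 0.05 for 1 member between T14 to T20 and T24 to T30, for 4 between T0 to T24 and T14 to T20, and for 5 between T0 to T24 and T24 to T30.

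The same members differed widely between replicate numbers. Each number was compared over its 6 libraries, with the 6 groups of treatment and window held as a factor, which also takes up the separate scaling of the tables. The 6 libraries of a number may share a culture, so these p-values say nothing about other cultures. Replicate 3 against 1 called 23 of 43 members (53.5%), where 51.6% of 13258 genes passed (26.7% higher and 24.8% lower), with 17 members higher and 6 lower in replicate 3. Replicate 2 against 1 called 21 members (48.8%), where 45.2% of genes passed (22.7% higher and 22.4% lower), with 14 higher and 7 lower in replicate 2. Replicate 3 against 2 called 16 (37.2%), where 44% of genes passed (22.5% higher and 21.5% lower), with 9 higher and 7 lower in replicate 3. The members' shares lay near those of all genes. Of all genes, 3546 were higher and 3291 lower in replicate 3 than in 1, a split of 2909 and 3907 after upper-quartile rescaling. In replicate 3 against 2 it was 2982 higher and 2857 lower, and 2461 and 3530 after that rescaling.

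Among sums of marker genes, that of bile duct markers was highest in replicate 2, while macrophage and endothelial sums overlapped between all numbers. The summed signal of 6 bile duct markers was 55485 to 59607 in replicate 3, 76162 to 82764 in replicate 2 and 58786 to 66529 in replicate 1, with Epcam under 10 in all. Hepatocyte markers summed to 174791 to 203570 in replicate 3, 157077 to 177791 in replicate 2 and 184586 to 203049 in replicate 1. Sums of 7 stellate cell and fibroblast markers were 133 to 206, 120 to 157 and 93.3 to 130 in replicates 3, 2 and 1, with Col1a2, Col3a1, Pdgfrb and Lrat under 10 in all. The 6 macrophage and leukocyte markers summed to 3813 to 5502, 4959 to 6378 and 5170 to 6207 in the same order, with Adgre1 and Clec4f at 0. Endothelial sums were 11.1 to 23.4, 8.91 to 23.7 and 16.6 to 32.4. The part of these cell types in the members' differences was not tested.

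**Figure D3:**
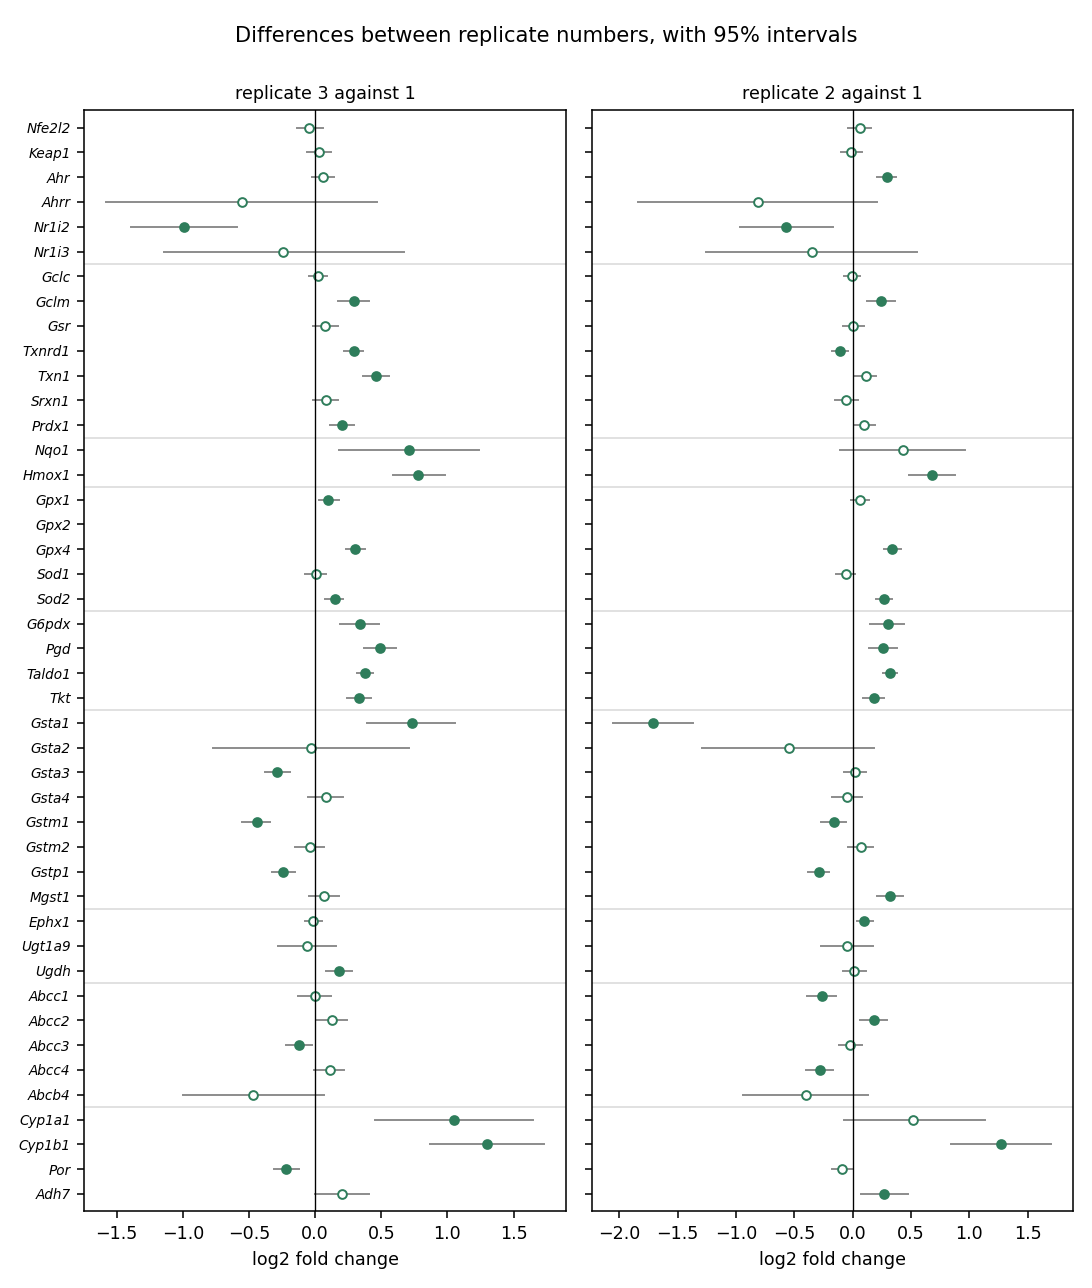
Log2 fold change of each tested member between replicate numbers, 3 against 1 and 2 against 1, with 95% intervals; filled points passed at an adjusted p under 0.05 and open points did not. The 4 pentose phosphate genes lie right of 0 in both panels, and Gsta1 lies right of 0 on the left and far left of 0 on the right.

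The listed pentose phosphate genes were higher in replicates 3 and 2 than in 1, all 4 of them in both contrasts. Of these, G6pdx and Pgd make NADPH, which glutathione and thioredoxin reductases use, while Taldo1 and Tkt do not make it themselves. Of all members 9 of 43 (20.9%) were higher in both, against 12.8% of all genes tested. Pgd, which makes NADPH from 6-phosphogluconate, had a lowest, median and highest signal of 6358, 8186 and 9661 in replicate 3, 5333, 7205 and 7903 in replicate 2, and 5244, 5636 and 6115 in replicate 1. Replicate 3 lay wholly above replicate 1, and replicate 2 overlapped both. Its log2 differences were 0.49 ± 0.056 for 3 against 1, 0.26 ± 0.056 for 2 against 1 and 0.23 ± 0.056 for 3 against 2 (SE, limma adjusted p = 5.7e-06, 0.0015 and 0.0041). Taldo1, a transaldolase, was higher by 0.38 ± 0.026 in replicate 3 and 0.32 ± 0.026 in replicate 2 than in 1, without overlap (adjusted p = 4.2e-08 and 3.4e-07). Tkt, a transketolase, was higher by 0.33 and 0.18, and G6pdx, which makes the first NADPH of the pathway, by 0.34 and 0.30. The smaller Tkt difference lost its call without the window T14 to T20 (adjusted p = 0.114), as did that of G6pdx in replicate 2 (adjusted p = 0.052).

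Hmox1 was higher in replicates 3 and 2 than in replicate 1. Its lowest, median and highest signals were 1865, 3136 and 3393 in replicate 3, 2018, 2751 and 2865 in replicate 2, and 1488, 1545 and 1734 in replicate 1, so that replicate 1 lay below both others without overlap. The log2 differences were 0.78 ± 0.093 for 3 against 1 and 0.68 ± 0.093 for 2 against 1 (SE, limma adjusted p = 8.2e-06 and 3.8e-05). Replicate 3 against 2 did not pass (0.10 ± 0.093, adjusted p = 0.390). Without T0 to T24 it passed (0.21, adjusted p = 8.0e-04), and without T14 to T20 it did not (adjusted p = 0.844). Gpx4, which reduces lipid peroxides, Sod2, the mitochondrial superoxide dismutase, and Gclm were also higher in both replicates 3 and 2 than in 1, by 0.30 and 0.34, 0.15 and 0.27, and 0.29 and 0.24 on the log2 scale. For Gclm the replicate 2 difference did not pass without T14 to T20 (adjusted p = 0.070) or without T24 to T30 (adjusted p = 0.083). For Sod2 replicate 3 against 1 did not pass in DMSO libraries alone (adjusted p = 0.086) or in pemafibrate libraries alone (adjusted p = 0.059).

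Nqo1 had 7.12, 20.7 and 28.3 as its lowest, median and highest signals in replicate 3, 3.97, 18.8 and 29.0 in replicate 2, and 5.93, 9.53 and 15.9 in replicate 1. All 3 numbers overlapped. The difference for 3 against 1 was 0.71 ± 0.25 (SE, limma adjusted p = 0.027), and it did not pass without T14 to T20 (adjusted p = 0.261) or without T24 to T30 (adjusted p = 0.106). Replicate 2 against 1 did not pass for Nqo1 (0.43 ± 0.25, adjusted p = 0.178). Its adjusted p was 0.0095 without T0 to T24, 0.847 without T14 to T20 and 0.489 without T24 to T30.

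Thioredoxin and its reductase were highest in replicate 3. Txn1 signal was 6322, 7152 and 7725 in replicate 3 (lowest, median and highest), 4879, 5750 and 5970 in replicate 2, and 4404, 5266 and 5943 in replicate 1. Replicate 3 lay above both others, which overlapped. The differences were 0.46 ± 0.045 for 3 against 1 and 0.35 ± 0.045 for 3 against 2 (SE, limma adjusted p = 1.3e-06 and 1.7e-05), and 2 against 1 passed only without T24 to T30 among the windows left out (0.16, adjusted p = 0.0084). Txnrd1 signal was 13437, 15280 and 16117 in replicate 3, 10670, 11314 and 11709 in replicate 2, and 11711, 12145 and 12592 in replicate 1. The 3 numbers did not overlap. The difference was 0.29 ± 0.034 for 3 against 1, −0.11 ± 0.034 for 2 against 1 and 0.40 ± 0.034 for 3 against 2 (adjusted p = 6.8e-06, 0.014 and 3.0e-07), and the second did not pass without T24 to T30 (adjusted p = 0.111). Pseudogenes of Txn1 may share its reads.

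Gsta1, an alpha class glutathione S-transferase, had the largest log2 difference between numbers of the 43 members tested. Its lowest, median and highest signals were 123, 294 and 433 in replicate 3, 19.9, 54.7 and 97.8 in replicate 2, and 101, 169 and 235 in replicate 1. Replicate 2 lay below both others without overlap, while replicates 3 and 1 overlapped. The log2 differences were 2.43 ± 0.16 for 3 against 2, −1.71 ± 0.16 for 2 against 1 and 0.73 ± 0.16 for 3 against 1 (SE, limma adjusted p = 3.0e-08, 1.0e-06 and 0.0015). Its close paralog Gsta2, with which reads may be divided, had signals of 0 to 29.9 and passed in none of the 3 contrasts.

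**Figure D4:**
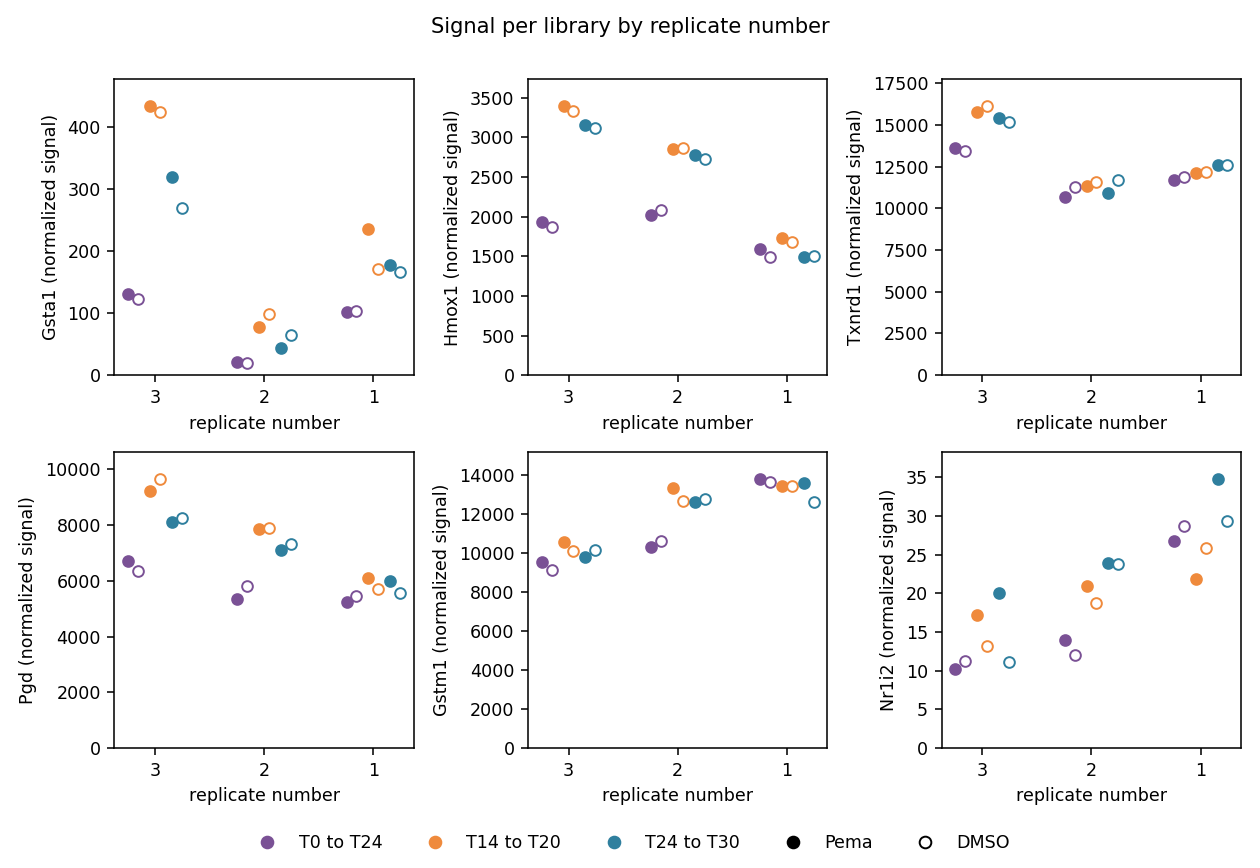
Normalized signal of 6 members in each library, by replicate number; colours give the window, filled points pemafibrate and open points DMSO. Gsta1 is lowest in replicate 2, Hmox1 and Pgd are lowest in replicate 1, Txnrd1 is highest in replicate 3, and Gstm1 and Nr1i2 are highest in replicate 1.

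Of the 43 members 3 (6.98%) were lower in both replicates 3 and 2 than in 1, against 11.6% of all genes tested. Gstm1, a mu class transferase with close paralogs, had 9110, 9975 and 10577 in replicate 3, 10335, 12666 and 13334 in replicate 2, and 12612, 13517 and 13814 in replicate 1 (lowest, median and highest). Its differences were −0.44 ± 0.050 for 3 against 1, −0.16 ± 0.050 for 2 against 1 and −0.28 ± 0.050 for 3 against 2 (SE, limma adjusted p = 4.7e-06, 0.016 and 3.1e-04), and the second was −0.05 without T0 to T24 (adjusted p = 0.272). Nr1i2, the PXR gene, had 10.2, 12.2 and 20 in replicate 3, 12, 19.9 and 23.9 in replicate 2, and 21.9, 27.7 and 34.8 in replicate 1. Replicate 3 lay wholly below replicate 1, with a difference of −0.99 ± 0.19 (adjusted p = 5.0e-04). For 2 against 1 it was −0.57 ± 0.19 (adjusted p = 0.023), which did not pass without T0 to T24 (−0.33, adjusted p = 0.257) or without T24 to T30 (adjusted p = 0.061). Gstp1, a pi class transferase, had log2 differences of −0.24 for 3 against 1 and −0.29 for 2 against 1 (adjusted p = 3.1e-04 and 7.2e-05).

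Among the known AHR targets, Cyp1b1 and Cyp1a1 were higher in replicate 3 than in replicate 1, while Ahrr averaged 15.4 ± 14.8 in replicate 3 and 22.1 ± 18.7 in replicate 1 (SD, n = 6 each) and did not pass. Cyp1b1 had 42.0, 57.4 and 109 in replicate 3, 42.1, 56.2 and 92.9 in replicate 2, and 11.8, 27.0 and 34.3 in replicate 1 (lowest, median and highest), with replicate 1 below both others. It was higher by 1.30 ± 0.20 in replicate 3 and 1.27 ± 0.20 in replicate 2 than in 1 (SE, limma adjusted p = 8.5e-05 and 1.3e-04). Cyp1a1 had 38.7, 104 and 182 in replicate 3, 28.8, 52.8 and 173 in replicate 2, and 21.9, 49.6 and 58.4 in replicate 1, and all 3 overlapped. Its difference for 3 against 1 was 1.05 ± 0.28 (adjusted p = 0.0062), but it did not pass without T14 to T20 (0.88, adjusted p = 0.084) or without T24 to T30 (0.62, adjusted p = 0.129). Replicate 2 against 1 and replicate 3 against 2 did not pass (adjusted p = 0.143 and 0.149), except without T0 to T24 (adjusted p = 0.0040 and 0.040). Ahr itself was higher in replicate 2, by 0.29 ± 0.038 over replicate 1, with a difference of −0.23 ± 0.038 for 3 against 2 (adjusted p = 2.3e-05 and 1.5e-04).

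The members had 60 calls in the 3 contrasts, of which 24 were lost in DMSO libraries alone, 17 in pemafibrate libraries alone, and 7 without T0 to T24, 14 without T14 to T20 and 10 without T24 to T30, all with the same sign. In all, 31 of 43 members passed in at least 1 of the 3 contrasts (72.1%), where 72.5% of all genes did. The 12 members that passed in none were Nfe2l2, Keap1, Ahrr, Nr1i3, Gclc, Gsr, Sod1, Gsta2, Gsta4, Gstm2, Ugt1a9 and Abcb4. They include Nfe2l2 and Keap1, the core switch of the pathway. Ugt1a9 averaged 612 ± 108 in replicate 3, 646 ± 228 in replicate 2 and 640 ± 119 in replicate 1 (SD, n = 6 each).

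The other genes of the pathways are given beside the shares of all genes, which were 51.6% for 3 against 1, 45.2% for 2 against 1 and 44% for 3 against 2. Replicate 3 against 1 called 32 of 49 tested other NRF2 genes (65.3%), 18 higher and 14 lower, and replicate 2 against 1 called 27 (55.1%), 15 higher and 12 lower. Replicate 3 against 2 called 28 (57.1%), 12 higher and 16 lower. Ftl1 and Fth1, the ferritin chains that store iron, were higher in replicate 3 than in 1 by 0.67 ± 0.044 and 0.46 ± 0.049 (SE, limma adjusted p = 2.7e-08 and 3.2e-06), and Gsto1, an omega class transferase, by 0.78 ± 0.064 (adjusted p = 2.0e-07). For Gstt1, a theta class transferase, the log2 difference there was −1.23 ± 0.054, and for Txnip −1.33 ± 0.11 (adjusted p = 3.1e-10 and 1.8e-07). Slc7a11, the cystine importer that feeds glutathione synthesis, averaged 837 ± 83.6 in replicate 3 and 437 ± 48.3 in replicate 2 (SD, n = 6 each), a log2 difference of 0.94 ± 0.079 (adjusted p = 3.0e-07). Of 37 other AHR, PXR and CAR genes tested, replicate 3 against 1 called 25 (67.6%), 14 higher and 11 lower, and replicate 2 against 1 called 26 (70.3%), 11 higher and 15 lower. Replicate 3 against 2 called 15 (40.5%), 11 higher and 4 lower, a share below that of all genes. Cyp2c55, a cytochrome P450, had a log2 difference of −2.64 ± 0.27 for 3 against 1 (adjusted p = 1.6e-06), and Tiparp was higher by 0.50 ± 0.064 (adjusted p = 1.4e-05).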

How the data were processed

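Each window has a table that the authors deposited, of 35551 mouse Ensembl genes in 6 libraries. Deposited values are normalized signal, and the column names end as salmon output does, per the file headers. The build was not given in the sources used here. Libraries were poly(A)-selected and stranded, per the labels' protocols. Low values were whole reads for only 62.5% to 75.5% of cases within a tolerance of 0.05, so no count test was run. Symbols matched 35181 IDs.

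Groups and replicate numbers came from the sample titles. log2(signal + 1), which understates changes of low genes, was tested with limma 3.58.1 in R 4.3.3 (variance trend, two-sided, Benjamini-Hochberg over all genes, threshold 0.05, mean of at least 10), blocked on replicate number. The numbers pair the libraries: correlations of the libraries' deviations from their group mean were 0.314 to 0.637 in all 9 same-number pairs and −0.437 to −0.11 otherwise. The fits over 9 pairs and over the 6 h exposures treat pairs of a number as independent. The paired fits within windows were tested on simulated data, and the other fits were not. Other settings were the block, pseudocount, low-value filter, rescaling, variance trend, robust fit, and replicates, windows or treatments left out.

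The members, lists and tests were chosen with earlier results of these data known. Values per library are given for members passing in any window or over all pairs, the 6 of smallest p over all pairs, and the 10 with the largest called differences between replicate numbers. Of other lists, genes passing (at most 6) or else the 2 of smallest p are named. Values of Nfe2l2, Ahrr, Adh7, Tiparp, Cyp1a2 and Ugt1a6b were added after they had been seen. Tables were scaled separately, so DMSO levels were not tested between windows.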

Additional observations from a re-analysis of the deposited data

Results flagged for a closer look

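Ephx1 was tested for a single far pair, as were 43 members in all, by setting the gap of the highest or lowest of the 9 paired log2 differences against their whole range. In replicate 1 of T24 to T30 the pemafibrate library exceeded its DMSO library by 0.12 on the log2 scale, while the other 8 pairs lay between −0.01 and 0.06. The gap was 0.51 of the range, above Dixon's 95% critical value for 9 values. Chance alone marks about 1 in 20 such sets, and 1 of 43 was marked here.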

How the results depend on the processing

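No member passed within a window under any setting tried, nor over all pairs except without T0 to T24, which called 1 (Ugt1a9). Of 528 values of named members for pemafibrate, 514 kept their direction and side of the threshold, and of 324 for replicate numbers 294 did. The limits are the 3 pairs per window and an unknown read depth, and for low genes such as Nqo1, Ahrr and Nr1i3 a spread that hides moderate changes. For the values that moved, the cause was not tested unless fewer samples entered.

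Without the replicate block, that is without the pairing, 0 genes passed in each of the 3 windows, where 7, 5 and 5 did with it, 2 over all pairs and 2 over the 6 h exposures, with 0 members in each. No filter on low values gave 0, 0 and 0 in the windows, as did no variance trend, which gave 6 over the 6 h exposures, with 0 members. T14 to T20 had 3 calls with upper-quartile rescaling and 8 with the robust fit. One shared fit of 18 libraries gave 14, 9 and 8. Over all pairs the 25 calls became 14 without T0 to T24, 13 without T14 to T20 and 15 without T24 to T30, and 12 with windows averaged within each number. Leaving out 1 replicate at a time gave 4 to 12 calls for T0 to T24, 1 to 7 for T24 to T30, 12 to 17 over all pairs and 7 to 9 over the 6 h exposures, with 0 to 1 members there, and 0 to 1 for each difference between windows.

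Between replicate numbers, DMSO libraries alone gave 3368, 2433 and 2721 calls for 3 against 1, 2 against 1 and 3 against 2, with 12 members for 2 against 1 and 8 for 3 against 2. Pemafibrate libraries alone gave 3992, 3138 and 3323, and leaving out T14 to T20 gave 4328, 3608 and 3778. Every rescaling moved the median of all genes by less than 0.1.

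Signs turned only in values that did not pass. Leaving out 1 replicate at a time gave Cyp1b1 −0.82 to 0.007, Por −0.032 to 0.058 and Adh7 −0.13 to 0.26 over T14 to T20, and Adh7 −0.03 to 0.035 over T24 to T30. It gave Ahrr −0.23 to 0.47 over all pairs, and Por −0.009 to 0.085 and Adh7 −0.082 to 0.14 over the 6 h exposures. Over all pairs Ahrr was −0.58 without T14 to T20 and Adh7 0.065 without T0 to T24. For replicate 3 against 2, Cyp1b1 was −0.003 with upper-quartile rescaling, −0.095 in DMSO libraries alone and −0.077 without T24 to T30.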

Other observations

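DMSO libraries of the 3 windows can be set side by side but not compared, because their tables were scaled separately. Taking the windows in order of their start, Nqo1 averaged 7.01 ± 0.987, 19.0 ± 8.75 and 13.7 ± 3.2 in DMSO libraries (SD, n = 3 each). Gsta1 averaged 82.1 ± 54.8, 231 ± 171 and 167 ± 102, and its paralog Gsta2 3.34 ± 2.51, 20.3 ± 8.49 and 10.4 ± 3.12. Hmox1 averaged 1816 ± 299, 2625 ± 856 and 2449 ± 843. Cyp1a1 averaged 45 ± 7.85, 137 ± 69.7 and 117 ± 57.2, and Adh7 1573 ± 104, 1853 ± 546 and 2439 ± 360.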
